A study of Homo sapiens with 80 samples.

Results

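Transcripts of 8 genes of the NODAL pathway were followed through the first week of differentiation of human pluripotent stem cells into cardiomyocytes. The genes were taken by name: the ligands NODAL, GDF3 and INHBA, the co-receptor TDGF1, the secreted antagonists LEFTY1, LEFTY2 and CER1, and the transcription partner FOXH1. They were 8 of 43388 genes in the expression tables, and all 8 were listed and passed the filter on low values in both experiments.

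NODAL is a secreted ligand of the TGF-beta family that binds activin receptors together with a membrane-anchored co-receptor and leads to phosphorylation of SMAD2 and SMAD3, which act on DNA with partners such as FOXH1. LEFTY1, LEFTY2 and CER1 block the ligand outside the cell, and the LEFTY genes are themselves induced by the pathway, which makes a negative feedback loop. In human pluripotent cells the pathway maintains the undifferentiated state, and after WNT activation it takes part in forming primitive streak, mesoderm and endoderm.

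Each differentiation was begun on day 0 with CHIR99021, an activator of WNT signalling, and was classed as high or low purity from the share of cells with cardiac troponin T in flow cytometry on day 16. IWP2, which blocks WNT secretion, was given on day 2 to WTC11 and on day 3, with conditioned medium, to H9 and IMR90-4. Insulin followed on day 6 or day 7. The comparison of classes asks which transcripts already differ before the outcome is measured. In the multi-omic experiment poly(A) RNA of the induced pluripotent line WTC11 was sequenced on days 0, 2, 4 and 6 with 4 wells per class. All its high purity wells came from a differentiation begun at passage 52 and all its low purity wells from another begun at passage 69, so that purity, passage and differentiation cannot be told apart and the wells measure the spread within a single differentiation. In the RNA-only experiment total RNA was sequenced from WTC11 (high purity at passage 81, low at passage 69), from IMR90-4, another induced line (high at 55, low at 75), and from the embryonic line H9 (high at 58, low at 55). Each of these 6 differentiations gave 1 library at each of 4 stages: day 0, day 2 (WTC11) or 3, day 4 or 5, and day 6 or 7.

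The wells of days 0 to 6 held 6579715 to 18143597 reads in genes, and the RNA-only libraries 17990882 to 40357968. Of 8 markers of pluripotent cells, 7 reached 1 TPM (a read share scaled by gene length) in the wells of day 0. The exception was POU5F1, at 0.637 ± 0.232 TPM in wells of high and 0.295 ± 0.149 TPM in those of low purity on day 0 (SD, n = 4 each). In the RNA-only libraries of day 0 it was at 181 and 189.7 TPM in H9 and at most 1.035 TPM in the other lines. In the same libraries of those other lines SOX2 was at 154.1 to 184.1 TPM and NANOG at 77.2 to 98.65 TPM. Why POU5F1 read so low there, including whether its reads were lost in mapping or counting, was not tested. The H9 low purity library of day 3 stood apart from the other 5 of its stage, with EOMES, a primitive streak factor, at 2.65 TPM against 54.5 to 135.7 TPM. The summed level of 7 cardiomyocyte markers there was 228 TPM, of which MYL7 made 219 TPM, against 12.5 to 22.2 TPM in the others of its stage. On day 4 of the multi-omic experiment, the summed level of 7 cardiomyocyte markers was 111 to 152 TPM in high and 2543 to 3226 TPM in low purity wells, and that of 7 fibroblast and stromal markers was 184 to 267 and 967 to 999 TPM. On day 6 the summed level of 8 definitive endoderm markers was 1539 to 1946 TPM in high and 378 to 762 TPM in low purity wells, with 7 of the 8 called higher in high purity by limma, and that of the fibroblast and stromal markers was 625 to 835 and 2941 to 4649 TPM. The cardiomyocyte sum of day 6 overlapped between the classes, at 3356 to 6194 TPM in high and 2142 to 3877 TPM in low purity wells. On day 2 the 8 pluripotency markers summed to 1790 to 2028 TPM in high and 1083 to 1124 TPM in low purity wells. The part of these differences in the results below was not tested. In such bulk samples, fewer cells of a type and less RNA per cell cannot be told apart.

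A gene was called when its Benjamini-Hochberg adjusted p, over all genes tested, was under 0.05 and its log2 fold change was at least 1 in either direction. Fold changes are high minus low purity unless stated, on the scale of log2(TPM + 1) for the multi-omic experiment, which understates the change of low genes. Between classes, limma called 0 of the 8 genes on day 0, when it called 1.07% of all genes tested. On day 2 it called 2 of 8 (NODAL and FOXH1, both higher in high purity) against 5.32% of all genes. On day 4 it called 4 of 8 against 7.84%: TDGF1, CER1 and FOXH1 were higher and NODAL was lower. On day 6 it called 3 of 8 against 8.80%: FOXH1 and TDGF1 higher, NODAL lower. The median fold change of the 8 genes was -0.17 (day 0), 0.48 (day 2), 0.06 (day 4) and 0.32 (day 6), and that of all genes was at most 0.01 on each day.

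**Figure D1:**
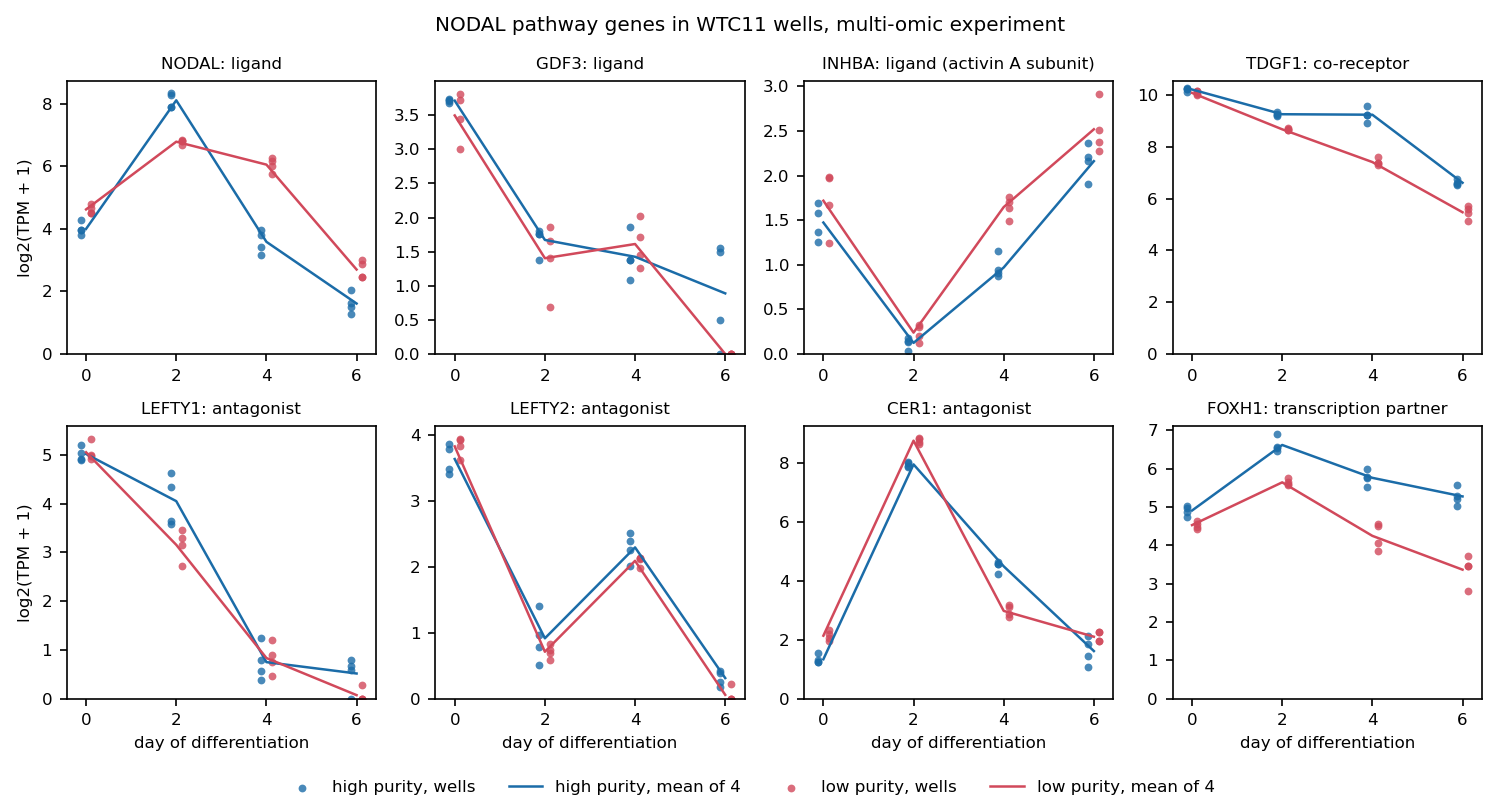
Level of each gene (log2(TPM + 1), vertical axis) by day of differentiation (horizontal axis) in the multi-omic experiment. Each point is a well, lines join the means of 4 wells, and blue and red mark high and low purity. The lines of NODAL cross between day 0 and day 2 and again between day 2 and day 4. The classes of TDGF1 and FOXH1 do not overlap on days 2, 4 and 6.

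NODAL lies on chromosome 10 from 70431936 to 70447951 (GRCh38, RefSeq). It rose from day 0 to day 2 in both classes, rose further in high purity, and then fell in high purity while it was still high in the low purity wells of day 4. On day 0 it was at 14.6, 13.0, 18.3 and 14.5 TPM in the 4 high purity wells and at 26.8, 21.95, 24.3 and 21.8 TPM in the low purity wells. On day 2 it was at 238, 327, 308 and 239 TPM in high purity wells and at 112, 101, 111 and 114 TPM in low purity wells, so every high purity well was above every low purity well.

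On day 4 the order was turned round. The high purity wells were at 13.0, 9.60, 7.92 and 14.7 TPM, with 75 to 155 reads per well, and the low purity wells at 71.1, 53.3, 63.95 and 75.45 TPM, with 409 to 630 reads. On day 6 NODAL was down to 1.43, 3.14, 2.06 and 1.85 TPM in high and 6.42, 4.45, 4.53 and 6.98 TPM in low purity wells. The classes did not overlap on any of the 4 days.

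The log2 fold change of NODAL was -0.68 ± 0.20 on day 0 (SE; limma adjusted p = 0.0123), short of the threshold of size, and 1.39 ± 0.20 on day 2 (limma adjusted p = 1.28e-07). It was -2.46 ± 0.20 on day 4 (limma adjusted p = 2.92e-14) and -1.07 ± 0.20 on day 6 (limma adjusted p = 1.49e-05). The day 4 mean was 5.84-fold higher in low purity (65.96 ± 9.68 TPM) than in high purity (11.3 ± 3.09 TPM; SD, n = 4 each). Without high purity well 1 or without low purity well 4, the day 6 value was -0.94 or -0.96 and was no longer called, and with a pseudocount of 5 it was -0.54 and not called.

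The course of NODAL also differed between the classes when the change over time was compared. From day 0 to day 2 it rose by 4.08 ± 0.20 in high purity (SE; limma adjusted p = 2.06e-22) and by 2.01 ± 0.20 in low purity (limma adjusted p = 3.39e-12), on the log2 scale. From day 2 to day 4 it fell by 4.63 ± 0.20 in high purity (limma adjusted p = 2.52e-24), while the value in low purity was -0.79 ± 0.20, which was short of the threshold of size. The difference between these changes was 2.08 ± 0.28 for days 0 to 2 (limma adjusted p = 2.04e-07) and -3.85 ± 0.28 for days 2 to 4 (limma adjusted p = 2.67e-15). From day 4 to day 6 it was 1.39 ± 0.28 (limma adjusted p = 0.000121), the fall being 3.39 in low and 2.01 in high purity. These changes share wells with the comparisons of the classes on single days and are no separate support for them.

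Over all 8 genes, limma called 7 for the change from day 0 to day 2 in high purity and 7 in low purity, where 16.7% and 17.9% of all genes were called. From day 2 to day 4 it called 4 and 6 of 8 (13.7% and 16.9% of all genes), and from day 4 to day 6 it called 5 and 4 (7.96% and 6.61%). The difference between the classes in the change was called for 2 of 8 genes from day 0 to day 2 (3.22% of all genes), for 4 from day 2 to day 4 (8.93%) and for 3 from day 4 to day 6 (7.51%).

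GDF3, a ligand related to NODAL that also signals through the co-receptor, lies on chromosome 12 from 7689784 to 7695775. It was at 12.1 ± 0.210 TPM in wells of high and 10.5 ± 2.67 TPM in those of low purity on day 0 (SD, n = 4 each). By day 2 it had fallen to 2.21 ± 0.410 and 1.765 ± 0.870 TPM, a log2 change of -2.08 in high and -2.24 in low purity (limma adjusted p = 5.26e-10 and 8.28e-11). The 2 classes overlapped on days 0, 2, 4 and 6, and limma called no fold change between them. On day 6 it had 0 reads in all 4 low purity wells, where a count of 0 allows up to 3 reads, 0.861 to 1.01 TPM depending on the well, and 10, 0, 7 and 2 reads in the high purity wells (1.94, 0, 1.83 and 0.413 TPM). The log2 fold change of GDF3 on day 6 was called with a pseudocount of 0.1 (2.64, limma adjusted p = 0.000573), without high purity well 2 (1.096, limma adjusted p = 0.000277) and by edgeR on recovered reads (adjusted p = 0.0026), whose fitted fold against wells at 0 depends on the prior count. From day 4 to day 6 it fell by 1.57 in low purity (limma adjusted p = 9.22e-07), and the difference between the classes in that change was 1.00 ± 0.34 (SE; limma adjusted p = 0.0279). That difference was not called without any 1 of 6 wells (high purity wells 1 and 3 or low purity wells 1 and 4 of day 4, high purity wells 1 and 3 of day 6), with values of 0.80 to 0.97.

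INHBA encodes the subunit of activin A, a ligand that uses the same receptors without the co-receptor, and lies on chromosome 7 from 41685114 to 41705406. It was the lowest of the 8 genes on day 2 in both classes, and on day 0 its wells overlapped with those of CER1 at the low end. From 1.80 ± 0.382 TPM in wells of high and 2.36 ± 0.753 TPM in those of low purity on day 0 (SD, n = 4 each), it fell to 0.0908 ± 0.0460 and 0.1825 ± 0.0740 TPM on day 2, with 1 to 5 reads per well (log2 changes of -1.40 and -1.58, limma adjusted p = 3.80e-12 and 9.455e-14). It then came to 3.50 ± 0.580 and 4.81 ± 1.19 TPM on day 6. The rise was called from day 2 to day 4 in low purity (1.36, limma adjusted p = 1.02e-11) and from day 4 to day 6 in high purity (1.11, limma adjusted p = 5.16e-09). By edgeR on recovered reads the other step was called too in each class (day 2 to day 4 in high purity, 3.28, adjusted p = 1.36e-09, and day 4 to day 6 in low purity, 1.12, adjusted p = 9.66e-07). With a pseudocount of 5 neither the falls to day 2 (-0.44 and -0.55) nor these rises (0.44 and 0.46) were called by limma.

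On day 4 the 4 low purity wells of INHBA (1.80 to 2.375 TPM) were all above the high purity wells (0.831 to 1.22 TPM). Its log2 fold change of -0.66 ± 0.14 was not called by limma, though it was called by edgeR on recovered reads (-1.13, adjusted p = 2.57e-05) and with a pseudocount of 0.1 (-1.07, limma adjusted p = 2.23e-05). Reads of its antisense gene INHBA-AS1 were at most 0.212 TPM in any of these wells. Whether counting used the strand is not given in the sources used here.

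TDGF1, the co-receptor for NODAL and GDF3, is named CRIPTO in RefSeq and lies on chromosome 3 from 46574535 to 46582457. It was the most abundant of the 8 genes in 7 of the 8 groups of wells, and in low purity wells of day 2 it was second to CER1, whose wells overlapped with it. On day 0 it was at 1182 ± 46.5 TPM in wells of high and 1080 ± 59.3 TPM in those of low purity (SD, n = 4 each), with overlapping wells.

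From day 2 on every high purity well of TDGF1 was above every low purity well. On day 2 the high purity wells were at 612.5, 648, 591 and 587 TPM and the low purity wells at 408, 395, 404 and 420.2 TPM. On day 4 the high purity wells were at 604, 589.8, 764 and 481 TPM, within the range of day 2 apart from wells 3 and 4, and the low purity wells had come down to 155, 165, 191 and 166 TPM.

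The log2 fold change of TDGF1 was 0.65 ± 0.11 on day 2, short of the threshold of size, 1.83 ± 0.11 on day 4 (SE; limma adjusted p = 1.29e-18) and 1.12 ± 0.11 on day 6 (limma adjusted p = 7.98e-12). From day 2 to day 4 it fell in low purity by 1.32 ± 0.11 (limma adjusted p = 1.85e-14) and was not called in high purity (-0.14 ± 0.11, limma adjusted p = 0.324), and the difference of these changes was 1.18 ± 0.15 (limma adjusted p = 2.43e-08). On day 6 it was at 96.7 ± 6.40 and 43.9 ± 7.74 TPM (SD, n = 4 each).

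TDGF1P3, a near-identical copy, can take reads of TDGF1. Of the 2464 windows of 50 bases in the longest TDGF1 transcript of GENCODE v29, 1014 (41.2%) were also found in transcripts of other genes, 1003 of them in TDGF1P3. TDGF1P3 was at 14.9 ± 0.627 TPM on day 0 and 6.95 ± 0.881 TPM on day 4 in high purity wells, and at 13.5 ± 2.45 and 1.31 ± 0.511 TPM in those of low purity (n = 4 in each group; SD). It moved with TDGF1 at a far lower level, and how reads common to both were counted is not given in the sources used here.

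LEFTY1 (chromosome 1, 225886282 to 225889146) and LEFTY2 (chromosome 1, 225936603 to 225941220) are neighbours 47456 bases apart and nearly identical in sequence. Their coding sequences in GENCODE v29, each 1098 bases without the stop codon, were identical at 97.2% of positions and differed at 31. Of the 1039 windows of 60 coding bases, 443 held no difference, and a read from such a window fits both genes. Over whole transcripts, 54.7% of the 50-base windows of LEFTY1 and 26.1% of those of LEFTY2 were found in transcripts of other genes. For LEFTY1, 834 of 862 such windows were found in the gene AL117348.2, and for LEFTY2, 493 of 583 were found in LEFTY1. The level of each LEFTY gene is thus less certain than that of NODAL, CER1, GDF3 and INHBA, which shared no such window.

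LEFTY1 fell by day 4 in both classes. On day 0 it was at 31.6 ± 3.30 TPM in wells of high and 32.5 ± 4.50 TPM in those of low purity (SD, n = 4 each). On day 2 it was at 11.04, 19.4, 23.9 and 11.4 TPM in high purity wells and at 10.1, 5.55, 7.92 and 8.78 TPM in low purity wells. The high purity wells were all higher, with wells 1 and 4 close to the highest low purity well. By day 4 no well was above 1.37 TPM, and each held 2 to 9 reads.

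On day 2 the log2 fold change of LEFTY1 was 0.96 ± 0.21 (SE; limma adjusted p = 0.000317), short of the threshold of size. It was called without high purity well 1 (1.12) or 4 (1.09), without low purity well 1 (1.06), and by edgeR on recovered reads (1.11, adjusted p = 0.000391). The fall from day 0 to day 2 was 1.00 in high and 2.06 in low purity (limma adjusted p = 9.94e-05 and 2.52e-11), a difference of 1.06 ± 0.30 (limma adjusted p = 0.00972). From day 2 to day 4 it fell by 3.39 and 2.34 (limma adjusted p = 5.82e-18 and 7.39e-13), a difference of -1.05 ± 0.30 (limma adjusted p = 0.0062).

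These LEFTY1 calls depended on the settings and on single wells. With a pseudocount of 0.1 the fall in high purity and both differences kept a size above the threshold (-1.04, 1.14 and -1.24) and missed it on the limma adjusted p (0.136, 0.408 and 0.291). With edgeR on recovered reads the difference from day 2 to day 4 was -1.28 (adjusted p = 0.134), and the fall in high purity was -0.985 (adjusted p = 0.000146). The fall to day 2 in high purity was not called without high purity well 4 of day 0 (-0.93), or well 1 (-0.84) or 4 (-0.87) of day 2. The difference up to day 2 was not called without high purity well 2 (0.97) or 3 (0.85) of day 2, or without low purity well 2 of day 0 (0.97) or of day 2 (0.92). The difference from day 2 to day 4 was not called, at -0.84 to -0.96, without high purity well 2 or 3 or low purity well 2 of day 2, or without high purity well 4 or low purity well 2 of day 4.

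LEFTY2 took another course than its neighbour: it fell by day 2, was higher again on day 4 and fell once more. In high purity wells it was at 12.8, 10.2, 9.68 and 13.6 TPM on day 0, at 0.963, 1.64, 0.727 and 0.418 TPM on day 2, and at 4.28, 3.80, 3.045 and 4.70 TPM on day 4. In low purity wells it was at 13.3 ± 1.395, 0.641 ± 0.111 and 3.27 ± 0.202 TPM on the same days (SD, n = 4). The wells of the classes overlapped on each day.

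The fall of LEFTY2 from day 0 to day 2 was 2.78 ± 0.19 in high and 3.27 ± 0.19 in low purity (SE; limma adjusted p = 2.27e-17 and 9.05e-20). The rise from day 2 to day 4 was 1.31 ± 0.19 and 1.33 ± 0.19 (limma adjusted p = 7.14e-08 and 4.06e-08), and rests on 3 to 15 reads per well on day 2 and 23 to 53 on day 4. With a pseudocount of 5 the rises were 0.56 and 0.53 and were not called. Between the classes the difference of the rises was -0.02 ± 0.26 (limma adjusted p = 0.973).

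CER1, a secreted antagonist that binds NODAL and is known as a marker of anterior endoderm, lies on chromosome 9 from 14717326 to 14722733. It had the largest log2 change between days of the 8 genes. On day 0 it was at 1.345, 1.39, 1.90 and 1.49 TPM in high and 3.53, 2.87, 3.15 and 4.07 TPM in low purity wells. By day 2 it was at 254, 234, 233 and 261 TPM in high and 445, 398, 413.5 and 461 TPM in low purity wells.

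Low purity wells of CER1 were thus all above high purity wells on both days, by log2 fold changes of -0.86 ± 0.16 and -0.74 ± 0.16 (SE; limma adjusted p = 9.33e-05 and 0.000152), neither large enough to be called. On day 0 it was called with a pseudocount of 0.1 (-1.17, limma adjusted p = 0.00201) and by edgeR on recovered reads (-1.22, adjusted p = 1.65e-05). On day 4 the order was reversed: the high purity wells were at 23.5, 22.4, 22.7 and 17.5 TPM and the low purity wells at 5.81, 8.03, 7.565 and 6.23 TPM. The difference on the log2 scale was 1.51 ± 0.16 (limma adjusted p = 5.15e-11). On day 6 the classes overlapped, at 2.175 ± 0.987 and 3.305 ± 0.513 TPM (SD, n = 4 each).

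From day 0 to day 2 CER1 rose by 6.61 ± 0.16 in high and 6.48 ± 0.16 in low purity (SE; limma adjusted p = 7.71e-34 and 1.65e-33). From day 2 to day 4 it fell by 3.57 ± 0.16 and 5.82 ± 0.16 (limma adjusted p = 8.41e-24 and 5.23e-32), a difference of 2.25 ± 0.22 (limma adjusted p = 2.50e-11). From day 4 to day 6 the difference was -2.00 ± 0.22 (limma adjusted p = 7.56e-10). In these wells NODAL and its antagonist CER1 thus differed between the classes in opposite directions on day 4. The same was seen on day 2, though with CER1 short of a call. At stage 2 of the RNA-only experiment CER1 was higher in high purity in 3 of 3 lines, the reverse of the day 2 wells.

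FOXH1, which brings SMAD complexes to DNA, was called higher in high purity on days 2, 4 and 6. The high purity wells were at 28.2, 31.5, 30.6 and 25.9 TPM on day 0, at 93.4, 118.8, 91.6 and 87.5 TPM on day 2, and at 44.5, 54.4, 62.5 and 52.7 TPM on day 4. The low purity wells were at 22.7, 20.6, 23.6 and 21.3 TPM on day 0, at 47.4, 46.3, 53.4 and 48.9 TPM on day 2, and at 13.45, 22.4, 21.9 and 15.7 TPM on day 4. No high purity well fell into the range of the low purity wells on any of these days or on day 6, when the means were 38.1 ± 6.25 and 9.56 ± 2.59 TPM (SD, n = 4 each).

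For FOXH1 the log2 fold change was 0.32 ± 0.19 on day 0, which was not called, and 1.04 ± 0.19 on day 2 (SE; limma adjusted p = 1.29e-05). It was 1.52 ± 0.19 on day 4 (limma adjusted p = 5.57e-09) and 1.89 ± 0.19 on day 6 (limma adjusted p = 2.10e-11). The day 2 call ended at 0.96 without high purity well 2, at 0.975 without scaling of the libraries and at 0.99 with a pseudocount of 5. From day 0 to day 2 FOXH1 rose by 1.68 ± 0.19 in high purity (limma adjusted p = 1.48e-10), and the value of 0.96 ± 0.19 in low purity was short of the threshold of size. The difference of these changes was 0.72 ± 0.26, short of the threshold of size (limma adjusted p = 0.0496).

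**Figure D2:**
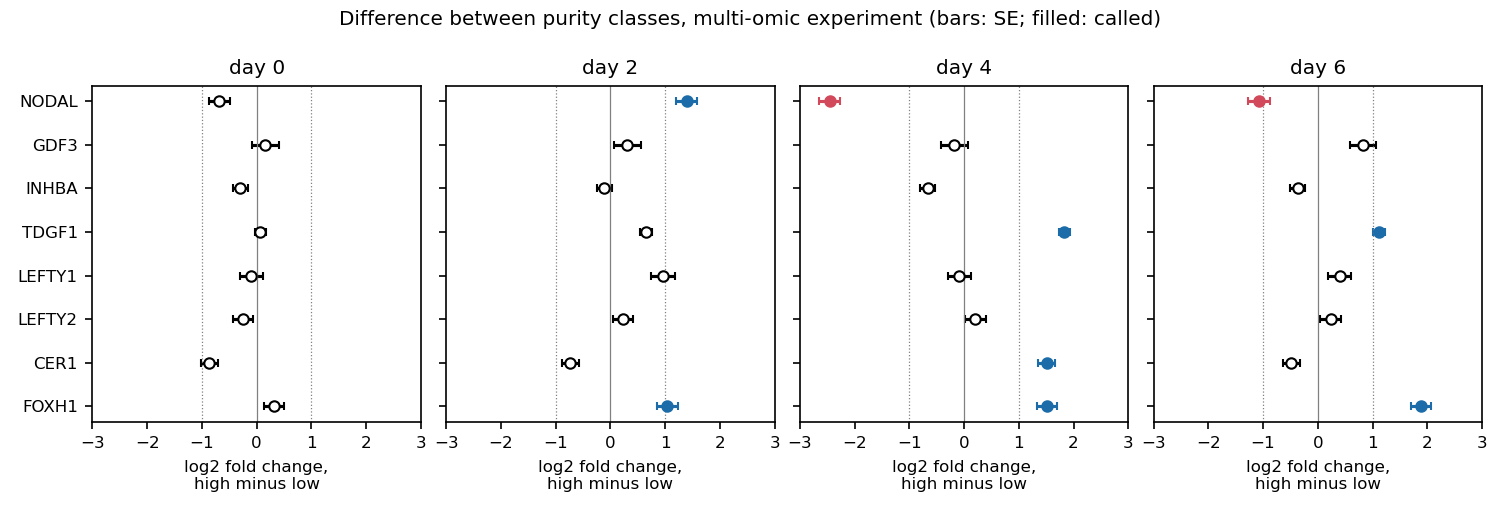
Log2 fold change between the classes (high minus low purity, horizontal axis) for each gene on days 0, 2, 4 and 6 of the multi-omic experiment. Points are limma estimates with bars of 1 SE, filled where called, and dotted lines mark the threshold of 1. NODAL runs from 1.39 on day 2 to -2.46 on day 4, and FOXH1 moves from 0.32 on day 0 to 1.89 on day 6.

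For 3 of the 8 genes there was no overlap between classes on day 0 (NODAL, CER1 and FOXH1), which was the case for 21.8% of all genes tested. This held for 5 of 8 on day 2 (34.0% of all genes), for 5 of 8 on day 4 (31.7%) and for 3 of 8 on day 6 (30.7%). Each of these 16 cases reached the floor of the exact permutation test (two-sided) for 4 wells in each class, p = 0.0286, and adjusted over the 32 tests of 8 genes and 4 days it was 0.0571. None passed 0.05 after this adjustment. The effect of FOXH1 and TDGF1, which were higher in 4 of 4 high purity wells on days 2, 4 and 6, was 1.997-fold, 2.915-fold and 3.98-fold for FOXH1 and 1.499-fold, 3.60-fold and 2.205-fold for TDGF1 in mean TPM.

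The order of levels within a group of wells, which can be compared because TPM is per length, also changed with time. On day 0 TDGF1 was followed by LEFTY1, FOXH1 and NODAL in high purity and by LEFTY1, NODAL and FOXH1 in low purity, with LEFTY1 and FOXH1 overlapping in the former and NODAL and FOXH1 in the latter. On day 2 the order was TDGF1, NODAL, CER1, FOXH1 in high purity, with NODAL and CER1 overlapping, and CER1, TDGF1, NODAL, FOXH1 in low purity, with CER1 and TDGF1 overlapping. On day 4 TDGF1 was followed by FOXH1, CER1 and NODAL in high purity but by NODAL, FOXH1 and CER1 in low purity, and none of these neighbours overlapped. LEFTY1 had the lowest mean of the 8 on day 4 in both classes, with wells that overlapped those of INHBA in high purity.

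Promoters of 5 of the 8 genes were in the RefSeq table of GRCh38.p14 promoters (250 bases before to 50 after a start): NODAL, INHBA, CER1, GDF3 and, with 2 starts, TDGF1. They were searched on both strands for the FOXH1 motif AATNCACA, the SMAD motif GTCTAGAC, the TCF/LEF motif CTTTGAT and the T-box motif AGGTGTGA, none of which overlapped another where found. The only matches were a FOXH1 motif in CER1 and another in GDF3, 154 to 147 and 56 to 49 bases before the start. Of all 35116 promoters in the table, 3.31% held the FOXH1 motif, 0.202% the SMAD motif, 2.62% the TCF/LEF motif and 0.98% the T-box motif. The stretches around the 2 matches are shown because they belong to a gene that rose by day 2 and a gene that fell; capitals mark the motif, and the strand is that of the gene (minus).
CER1, chr9:14722840-14722927: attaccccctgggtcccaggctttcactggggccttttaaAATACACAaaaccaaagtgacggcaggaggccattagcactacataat
GDF3, chr12:7695784-7695871: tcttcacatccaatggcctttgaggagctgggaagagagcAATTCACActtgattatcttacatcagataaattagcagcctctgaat
A match is a run of letters in this window and shows no binding.

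Other genes of the pathway were described in 5 lists, 47 genes in all, of which 43 were tested in the multi-omic experiment. Between classes limma called 0 of 43 on day 0, 3 on day 2 (all higher in high purity), 10 on day 4 (7 higher, 3 lower) and 6 on day 6 (3 higher, 3 lower), against 1.07%, 5.32%, 7.84% and 8.80% of all genes. The count of day 2 was close to that share. The median log2 fold change of the 43 was 0.09 on day 2 and 0.095 on day 4. Of the calls of day 4, 5 were in the list of targets, transcription factors that respond to the pathway in early germ layers and WNT3: 5 of the 8 tested were higher in high purity, and the median of the 8 was 1.31.

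Among the targets, EOMES was at 327 ± 22.0 TPM in wells of high and 291 ± 12.2 TPM in those of low purity on day 2, and came to 107 ± 11.3 and 12.9 ± 1.44 TPM by day 4 (n = 4 in each group; SD). Its log2 fold change on day 4 was 2.97 ± 0.12 (SE; limma adjusted p = 8.10e-24). EOMES was thus higher in high purity on day 4, when NODAL itself was lower.

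NANOG, a pluripotency factor, was called on both days: at 46.1 ± 2.12 against 8.96 ± 2.39 TPM on day 2, which is 2.34 ± 0.12 on the log2 scale (limma adjusted p = 2.39e-20), and 1.58 ± 0.12 on that scale on day 4 (limma adjusted p = 2.11e-15). LHX1 was at 2.23 ± 0.98 against 0.0735 ± 0.0960 TPM on day 4 (SD, n = 4 each; log2 fold change 1.51, limma adjusted p = 5.82e-16). The other calls among the targets, FOXA2 on day 2 (1.23) and SOX17 and TBXT on day 4 (1.44 and 1.19), are named after their values were seen.

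In the lists upstream of the targets, few genes were called. Of 9 receptors and co-receptors, CFC1, a co-receptor related to TDGF1, was higher in high purity on day 4, at 57.04 ± 4.80 against 9.90 ± 3.27 TPM (SD, n = 4 each; log2 fold change 2.46, limma adjusted p = 2.85e-11), and none was lower. CFC1 has a near-identical copy, CFC1B, and its level is uncertain for that reason. Of 8 ligands, relatives and processing enzymes tested, TGFB2 was lower on day 4 (-1.60 ± 0.10, limma adjusted p = 1.85e-17). Of 7 signal transducers and partners WWTR1, a coactivator known as TAZ, was lower on day 4 (-1.61 ± 0.06, limma adjusted p = 2.85e-24), and SMAD2 and SMAD3, named after their values were seen, were not called on any of the 4 days.

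Of 11 inhibitors tested, on day 2 high purity wells had more TGIF2 (1.09 ± 0.06, limma adjusted p = 8.45e-18), and on day 4 more TGIF1, a corepressor of SMAD2 (1.37 ± 0.10, limma adjusted p = 9.01e-15) and less of the decoy receptor BAMBI (-1.12 ± 0.08, limma adjusted p = 1.10e-15). Over time, 6 of 8 targets tested rose from day 0 to day 2 in each class, 1 fell (NANOG), and 6 fell from day 2 to day 4 in each class.

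**Figure D3:**
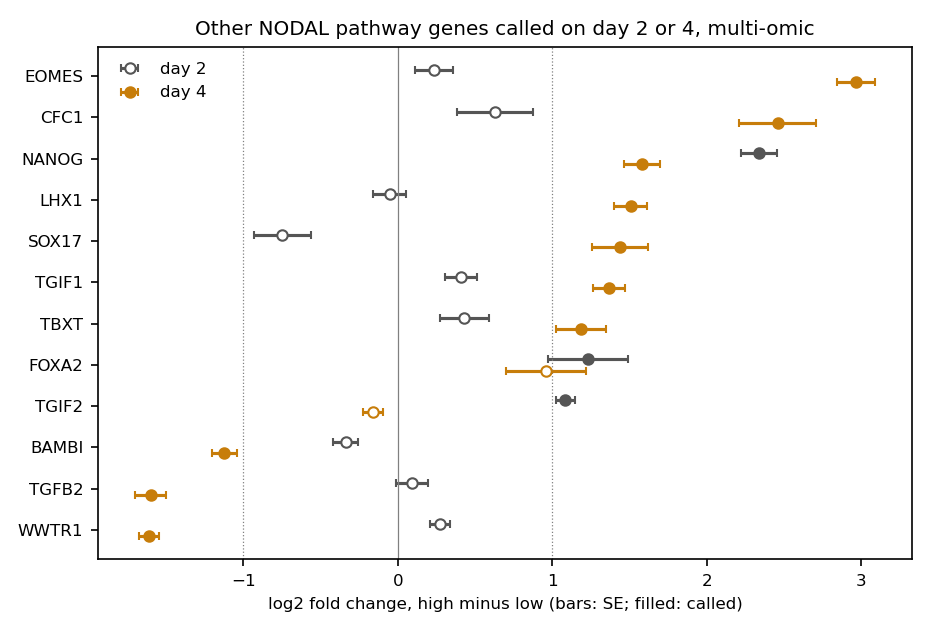
Log2 fold change between the classes (high minus low purity, horizontal axis) of the 12 other pathway genes called on day 2 (grey) or day 4 (orange) of the multi-omic experiment. Points are limma estimates with bars of 1 SE and are filled where called. EOMES reaches 2.97 and WWTR1 -1.61 on day 4, and neither was called on day 2.

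In the RNA-only experiment the 8 genes were compared between classes with line and stage in the model. edgeR called 0 of 8 at each of the 4 stages, where it also called 0.00% of all genes at stage 1, 0.00% at stage 2, 0.00% at stage 3 and 0.00% at stage 4. At an unadjusted p under 0.05 there were 0 of 8 at stage 1, 2 at stage 2 (CER1 and GDF3), 1 at stage 3 (FOXH1) and 2 at stage 4 (NODAL and FOXH1), where 1.48%, 7.95%, 7.54% and 12.1% of all genes were under it. In these cases CER1 and FOXH1 were higher in high purity, and GDF3 and NODAL were lower. DESeq2 called 0, 0, 0 and 1 of the 8, against 0.00%, 0.467%, 0.319% and 1.18% of the genes for which it gave an adjusted p.

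FOXH1 was the gene that DESeq2 called at stage 4, with a log2 fold change of 1.42 and a DESeq2 adjusted p of 0.0024. The edgeR value was 1.43 ± 0.32 (SE, derived from the F statistic) with an unadjusted p of 0.000841 and an adjusted p of 0.216. High and low purity libraries of FOXH1 were at 19.96 and 2.99 TPM in H9, 24.6 and 12.8 TPM in IMR90-4, and 12.6 and 7.65 TPM in WTC11. High was above low in 3 of 3 lines at stages 2, 3 and 4, and in 2 of 3 at stage 1. Of the other members, TDGF1 and CER1 were higher in high purity in 3 of 3 lines at stage 2, and GDF3 at stage 4. NODAL was lower in 3 of 3 lines at stage 4, and GDF3 at stage 2. The share of all genes with the same order in 3 of 3 lines is not given here.

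**Figure D4:**
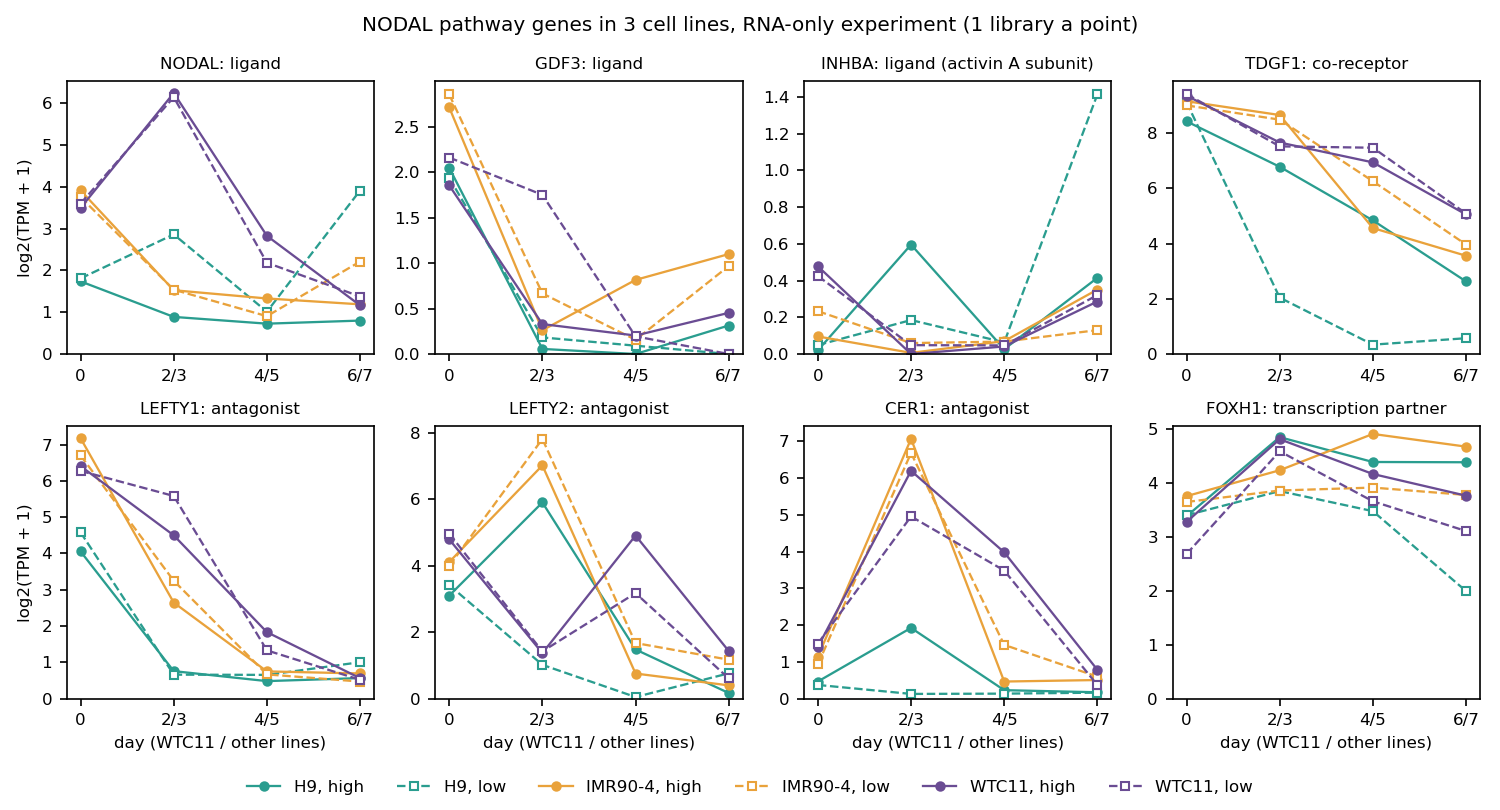
Level of each gene (log2(TPM + 1), vertical axis) at the 4 stages of the RNA-only experiment (horizontal axis: day 0, then WTC11 day / day of the other lines). Colours mark the cell line, filled points with solid lines high purity and open points with dashed lines low purity, 1 library a point. NODAL peaks at stage 2 in both WTC11 differentiations, and LEFTY2 peaks there in IMR90-4 and H9 high purity.

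The day 4 levels of the multi-omic experiment were not those of the WTC11 differentiations of the RNA-only experiment, which had 1 library each on that day. There NODAL was at 6.11 TPM in high purity and 3.55 TPM in low purity, TDGF1 at 122 and 176.5 TPM, and CER1 at 14.8 and 10.2 TPM. On day 2, NODAL was at 75.1 and 70.09 TPM, CER1 at 72.5 and 30.1 TPM, and LEFTY1 at 21.6 and 47.0 TPM. The order of the classes was thus the reverse of that in the multi-omic wells for NODAL and TDGF1 on day 4. It was also reversed for CER1 and LEFTY1 on day 2, and the same for CER1 on day 4 and NODAL on day 2. TNNT2, the cardiac troponin T gene, was at 2.78 and 0.613 TPM on day 4 in these libraries, against 15.2 ± 4.63 and 489 ± 27.4 TPM in the multi-omic wells (SD, n = 4 each). The 2 experiments differ in library kit and in differentiation, and in passage for high purity (52 and 81) but not for low purity (69 in both), and their levels were not tested against each other.

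Over the 6 differentiations, edgeR called 4 of the 8 genes for the change from stage 1 to stage 2, where 25.6% of all genes were called. CER1 rose by 5.08 ± 1.05 (SE; edgeR adjusted p = 0.000622) and FOXH1 by 1.26 ± 0.29 (adjusted p = 0.00135), while LEFTY1 fell by 2.90 ± 0.68 (adjusted p = 0.00173) and GDF3 by 2.96 ± 0.81 (adjusted p = 0.00563). From stage 2 to stage 3 CER1 fell by 3.79 ± 0.96 (adjusted p = 0.0133) and LEFTY1 by 3.15 ± 0.72 (adjusted p = 0.00779), 2 of 8 against 6.86% of all genes. From stage 3 to stage 4 edgeR called 0 of 8 against 3.72% of all genes, with 3 at an unadjusted p under 0.05 (TDGF1, CER1 and INHBA; 20.6% of all genes were under it), and DESeq2 called CER1 and INHBA, 2 of 8 against 5.44% of all genes. In the earlier steps DESeq2 called 5 of 8 (26.9% of all genes) and 4 of 8 (8.97%).

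These calls rest on few differentiations. Without IMR90-4, LEFTY1 and GDF3 were not called up to stage 2 (adjusted p = 0.0994 and 0.0731 by edgeR), and neither CER1 nor LEFTY1 from stage 2 to stage 3 (adjusted p = 0.205 and 0.102 by edgeR). Without H9 the GDF3 call ended (edgeR adjusted p = 0.0716), and without WTC11 the FOXH1 call (0.90, edgeR adjusted p = 0.0571) and the second LEFTY1 call (edgeR adjusted p = 0.0916). Without differentiation as a block CER1 from stage 2 to stage 3 was at an edgeR adjusted p of 0.0645.

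The rise of CER1 and FOXH1 and the fall of LEFTY1 and GDF3 had the direction seen in the multi-omic high purity wells. CER1 reached 133 and 102 TPM in high and low purity IMR90-4 on day 3 and 72.5 and 30.1 TPM in WTC11 on day 2, but 2.79 and 0.0920 TPM in H9. LEFTY1 went from 144 and 103 TPM on day 0 to 5.26 and 8.51 TPM in IMR90-4, from 15.6 and 22.97 to 0.690 and 0.580 TPM in H9, and from 84.0 and 76.5 to 21.6 and 47.0 TPM in WTC11.

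NODAL and LEFTY2 did not change alike in the lines. NODAL went from 10.3 to 75.1 TPM in high and from 11.15 to 70.09 TPM in low purity WTC11 between day 0 and day 2. In IMR90-4 it went from 14.1 to 1.88 TPM and from 12.5 to 1.91 TPM by day 3, and in H9 from 2.34 to 0.851 TPM in high and from 2.51 to 6.28 TPM in low purity. It was thus higher at stage 2 in both WTC11 libraries than in any of the other 4.

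After day 0 LEFTY2 was highest at stage 3 in WTC11 and at stage 2 in IMR90-4 and H9. At these stages WTC11 was sampled on days 2 and 4, and the other lines on days 3 and 5. Whether the peak itself came at another time therefore cannot be told. In WTC11 it was at 1.58 and 1.68 TPM in high and low purity on day 2 and at 29.0 and 8.02 TPM on day 4, the low-then-high course of the multi-omic wells. In IMR90-4 it was at 128 and 223.5 TPM on day 3 and at 0.686 and 2.19 TPM on day 5, and in high purity H9 at 58.8 and 1.785 TPM on the same days. Low purity H9, the library that stood apart, was at 1.02 TPM on day 3.

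A comparison added after the data were seen tested whether the change in WTC11 differed from that in the other lines. From stage 1 to stage 2 edgeR called 2 of 8 genes against 5.09% of all genes: NODAL (4.66 ± 1.11, SE; adjusted p = 0.0235) and LEFTY2 (-6.52 ± 1.63, adjusted p = 0.0282). From stage 2 to stage 3 it called LEFTY2 (9.45 ± 1.77, adjusted p = 0.0121), 1 of 8 against 2.08%. Both calls of the first step ended on leaving out either WTC11 differentiation, either IMR90-4 differentiation or the H9 high purity differentiation, and the LEFTY2 call of the second step ended on leaving out either WTC11 or either IMR90-4 differentiation. Without the H9 low purity differentiation LEFTY1 (2.96) was called as well in the first step, and 4 genes were called in the second step, with NODAL at -3.31, CER1 at 4.45 and TDGF1 at 2.41 beside LEFTY2. The lines were sampled on different days and given IWP2 on different days, so line, day and protocol cannot be told apart here.

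TDGF1 was lower at stage 4 than at stage 1 in all 6 differentiations, from 343 to 682 TPM on day 0 to 0.486 to 33.0 TPM at stage 4, and no single step was called by edgeR (DESeq2 called the first, -2.22, adjusted p = 0.0242). At stage 2 it was at 109 and 3.12 TPM in high and low purity H9, 402 and 358 TPM in IMR90-4, and 201 and 183 TPM in WTC11. Its values in H9 low purity were under those of every other library from stage 2 to stage 4. INHBA was at most 1.66 TPM in every RNA-only library and GDF3 at most 6.24 TPM, so their course there rests on low levels.

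Of the other pathway genes, 45 were tested in the RNA-only experiment, and edgeR called 0 of them between the classes at each stage. From stage 1 to stage 2 it called 18 of 45 (16 higher, 2 lower), with 8 of 9 targets higher and NANOG lower. From stage 2 to stage 3 it called 15 (5 higher, 10 lower), 6 of them lower targets, and from stage 3 to stage 4 it called 3. The shares over all genes were 25.6%, 6.86% and 3.72% in these steps.

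Genes whose pattern over the 32 wells was most like that of a member were listed with Pearson's r of log2(TPM + 1), as a description over wells that share day and differentiation. CER1 was most like GSC (r = 0.984), TBXT (0.984) and FGF17 (0.981), with r of 0.894, 0.792 and 0.927 over the 24 RNA-only libraries. LEFTY1 was most like HAS3 (0.984), ATCAY (0.979) and ITGB5 (0.973), with 0.969, 0.837 and 0.943 in the RNA-only libraries. TDGF1 was most like GPC4 (0.985), PMAIP1 (0.981) and LRP8 (0.967), with 0.879, 0.866 and 0.909.

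GDF3 was most like MRPL3 (0.949), RAN (0.948) and CCT6A (0.946), with 0.798, 0.802 and 0.815 over the RNA-only libraries. The likenesses of the other genes were lower in the RNA-only libraries. NODAL was most like GJA1 (0.913), IMPA1 (0.895) and NANS (0.891), with 0.378, 0.457 and 0.651 there. Among the genes most like LEFTY2 were DHCR7 (0.962) and TACC3 (0.956), with 0.487 and 0.47, and FOXH1 was most like TRIB2 (0.953), PTPN6 (0.941) and ENO2 (0.936), with 0.561, 0.339 and 0.496.

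Between members, r over the 32 wells was 0.78 for NODAL with CER1 and 0.47 for NODAL with FOXH1, against 0.37 and -0.1 over the RNA-only libraries. LEFTY1 and LEFTY2, for all their identity in sequence, had r = 0.61 over the wells and 0.47 over the RNA-only libraries. LEFTY2 and CER1 had r = -0.35 over the wells, all of WTC11, and 0.58 over the 3 lines.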

How the data were processed

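Genes and lists were chosen with earlier results of these data known. The authors aligned reads to hg38 with STAR 2.5.3a and counted them with featureCounts 2.0.3, per the submitters' processing notes; the annotation and how TPM were computed are not given in the sources used here. The deposited tables hold gene counts and TPM for 56 multi-omic and 24 RNA-only libraries and 43388 genes.

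In the deposited multi-omic table, 0 of 56 count columns held the reads behind the TPM column of the same name, 50 held those of another name and 6 of none. TPM were used there, since for 32 of 32 TPM columns of days 0 to 6, but 6 of 32 count columns, the nearest RNA-only WTC11 library was of the same day. That check compared days only, so the high and low purity names of the TPM columns were taken as deposited. Whole reads were recovered from TPM (100% of nonzero values, tolerance 0.01 reads, for 37194 genes). In the RNA-only counts, 36 broken lines of 6 genes were left out.

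Multi-omic values were fitted with limma 3.58.1 (trend) on log2(TMM-scaled TPM + 1), 16 groups of purity and day, 40 residual degrees of freedom, for the 25664 genes that reached 1 TPM in 3 or more libraries. RNA-only counts were fitted with edgeR 4.0.16 (quasi-likelihood, TMM, filterByExpr, 23848 genes), with means for line and stage for the classes and for differentiation for the stages. P-values were Benjamini-Hochberg adjusted over all genes tested. Exact permutation tests were two-sided. P-values of the multi-omic experiment measure the spread between wells of a single differentiation per class. For the RNA-only classes they measure how far the high minus low difference varied between the 3 lines. That fit took the 4 stages of a differentiation as separate units. For the RNA-only stages they measure how far the change varied between 6 differentiations. Named other pathway genes were those called between classes on day 2 or 4, at most the 4 of each list with the largest change. A gene of the target list, a gene of like pattern and a stretch of coding sequence are not reported here, and the counts leave that target gene out. Scripts were tested on simulated data. Alternatives were other pseudocounts, scalings, filters, DESeq2 1.42.0, edgeR on recovered reads, the replicate block and leaving out libraries. Coding sequences and shared windows came from GENCODE v29, and promoters from RefSeq GRCh38.p14. R 4.3.3 and Python 3.11.15 were used.

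Same-numbered wells did not deviate together (r of -0.10 to 0.11 over 16 pairs), so well numbers were not taken as pairs.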

Additional observations from a re-analysis of the deposited data

Results flagged for a closer look

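Of 64 groups of 4 wells, 5 held a well far from the other 3 by Dixon's ratio, and chance flags about 1 in 20 groups. LEFTY1 on day 0 was at 39.2 TPM in low purity well 2, with the others at 29.3 to 30.8 TPM. GDF3 on day 2 was at 1.60 TPM in high purity well 3, with the others at 2.38 to 2.48 TPM. LEFTY2 on day 4 was at 2.97 TPM in low purity well 1, with the others at 3.34 to 3.398 TPM. On day 6, 1 read gave LEFTY1 0.218 TPM in low purity well 3 and 1 read gave LEFTY2 0.171 TPM in low purity well 2, with the other wells at 0.

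The change between days differed between the purity classes, by limma, in 9 cases (high minus low, log2). From day 0 to day 2 the difference was 2.08 for NODAL and 1.06 for LEFTY1. From day 2 to day 4 it was -3.85 for NODAL, 2.25 for CER1, 1.18 for TDGF1 and -1.05 for LEFTY1. From day 4 to day 6 it was 1.39 for NODAL, -2.00 for CER1 and 1.00 for GDF3. The class differences share wells between steps.

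The change between stages differed between WTC11 and the other lines, by edgeR, in 3 cases (WTC11 minus the others, log2). From stage 1 to stage 2 it was 4.66 for NODAL and -6.52 for LEFTY2 (5.09% of all genes were called), and from stage 2 to stage 3 it was 9.45 for LEFTY2 (2.08%). This comparison was added after the data were seen, so its p-values are no independent test. Each of the 3 calls ended on leaving out certain single differentiations, and line, day and protocol cannot be told apart.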

How the results depend on the processing

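Of 2409 values of the 8 genes recomputed under an alternative, 2234 kept their sign and their side of the threshold, 70 lost a call, 55 gained one, 50 were uncalled values that changed sign and stayed uncalled, and 0 reversed a called direction. The replicate block on well number changed 0 of 104 such values; of 16 wells, 6 matched best the well of their own number, which is a hint from the data and not the design. Without differentiation or line as a block, 1 of 56 RNA-only values lost a call and 1 gained one (NODAL, stage 2 to 3, edgeR adjusted p = 0.048).

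The number of the 8 genes called between classes went from 0 to 1 on day 0 with a pseudocount of 0.1 or edgeR on recovered reads, from 2 to 1 on day 2 with a pseudocount of 5 or no scaling, and from 3 to 6 on day 6 with a pseudocount of 0.1. From day 4 to day 6 it went from 5 to 3 in high purity with a pseudocount of 5, and in low purity from 4 to 8 with a pseudocount of 0.1, 2 with a pseudocount of 5 and 7 with edgeR on recovered reads. The class difference from day 0 to day 2 went from 2 to 1 with either pseudocount or no scaling. DESeq2 called 1 gene at RNA-only stage 4 in place of 0, 4 in place of 2 from stage 2 to stage 3, 2 in place of 0 from stage 3 to stage 4, and 4 in place of 2 for WTC11 against the other lines from stage 1 to stage 2. The cause of these moves was not tested. For the pseudocounts, the scaling, edgeR on recovered reads and the left-out libraries below, the share of all genes called is not given here. Whether the 8 genes moved more than all genes under those settings therefore cannot be told.

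Leaving out 1 multi-omic well at a time gave 1 to 3 calls on day 2, 4 on day 4 and 2 to 4 on day 6. It gave 4 to 5 from day 4 to day 6 in low purity and 1 to 2 for the class difference from day 0 to day 2. In the RNA-only experiment, 1 whole cell line (its high and low purity libraries) was left out at a time. This gave 2 to 4 from stage 1 to stage 2, 0 to 4 from stage 2 to stage 3 and 0 to 2 from stage 3 to stage 4. For WTC11 against the other lines, leaving out 1 differentiation at a time gave 0 to 3 and 0 to 4. Depth limits GDF3, INHBA, LEFTY1 and LEFTY2, which had 15 reads or fewer per multi-omic well on at least 1 day.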
